A study of Mus musculus with 12 samples.

Results

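Chemokines and their receptors were followed in mouse brain at 3 times after photodynamic therapy with 5-aminolevulinic acid (5-ALA). The set was taken by gene name from the deposited expression table: every name that starts with Ccl, Cxcl, Ccr, Cxcr or Ackr and then a digit. The rule found 66 of the 54532 genes in the table, under 60 names, since 7 of the entries lie on unplaced scaffolds of the genome and several of those repeat a name. They comprise 32 CC ligands, 13 CXC ligands, 11 CC receptors, 6 CXC receptors and 4 atypical receptors. Fractalkine and its receptor, Cx3cl1 and Cx3cr1, are outside the name rule.

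The study sequenced RNA of brain tissue from 4 groups with 3 libraries each. Treated mice were injected with 5-ALA at 20 mg/kg, a heme precursor from which cells make the light-sensitive pigment protoporphyrin IX. After 30 min they were irradiated with a 635 nm laser at 20 J per square centimetre, and brains were taken 1.5 h, 12 h or 48 h later, after perfusion with 0.9% NaCl. Controls, for which 0.9% NaCl is given as well, carry PBS in their titles and untreated as their treatment. Whether these mice were injected or illuminated, which brain region was used, how old the mice were and whether each library came from a separate mouse is not given. For the same samples, BALB/c and C57BL/6 are both named as strain. P-values therefore measure the spread between libraries, which may be in part technical. In bulk tissue, fewer cells of a type and less RNA per cell cannot be told apart.

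Chemokines are small secreted proteins that attract leukocytes along a gradient, and the CC and CXC families are named after the spacing of conserved cysteines. Their receptors signal through G proteins of the Gi class, and many of the receptors accept several ligands. Inflammatory chemokines are made when glia, endothelium or leukocytes meet cytokines, damaged cells or microbes, and NF-kB is a main activator of their genes. Homeostatic chemokines such as Cxcl12 and Cxcl14 are made without a stimulus, and atypical receptors bind chemokines without G protein signalling and so limit or present them.

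Values are FPKM, counts of sequenced fragments set relative to the length of the gene and the depth of the library, as the authors deposited them. The libraries held 15348579 to 17444654 reads assigned to genes. Markers of neurons, oligodendrocytes, astrocytes and microglia from a list of 4 to 7 genes each were all present in every library, as for brain tissue. Replicates 1 and 3 of the 1.5 h group stood apart: 12.4% and 9.14% of their reads were mitochondrial, where the other 10 libraries had 4.16% to 6.14%. Short genes were also relatively high in these libraries, with slopes of -0.104 and -0.060 in log2 FPKM per doubling of gene length, against -0.0089 to 0.0413 elsewhere. Replicate 1 of the 48 h group had a summed oligodendrocyte level of 992 FPKM, against 402.5 and 412.6 FPKM in the other 48 h libraries, and it was the highest of its group for 15 of the 28 tested members, as control replicate 1 was of the controls.

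Most of the set was scarcely detected. A total of 11 members had no read in any library, among them the Ccl19 and Ccl21 copies and Cxcl15. Another 27 had reads but were not above 0.5 FPKM in at least 3 of the 12 libraries, the limit for testing. Their summed reads over 12 libraries ran from 1 to 219, with a median of 11, and the largest value among them was 0.756 FPKM (Cxcl5, in 1.5 h replicate 2). The remaining 28 members were tested: 15 CC ligands, 6 CXC ligands, 3 CC receptors, 1 CXC receptor and 3 atypical receptors. A member that passed this limit only through the group in which it was high had to differ, so the counts describe the tested members and not the set. Ccl2, Ccl3, Ccl4, Ccl5, Ccl6, Ccl7, Ccl9, Ccl11, Cxcl1, Cxcl2, Cxcl10, Cxcl16 and Ccr1 exceeded it in treated libraries only. For these, a difference from control was in part built into the selection, and p-values against control are no independent measure of it. Without the limit, none of the 27 was called in any of the 6 comparisons by limma at a false discovery rate (FDR) of 0.05.

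In control brain, the members with the highest levels were Cxcl14 at 36.0 ± 1.71 FPKM, the atypical receptor Ackr1 at 14.7 ± 2.04 FPKM and Ccl27a at 14.0 ± 2.14 FPKM (SD, n = 3 for every mean). Cxcl12 at 5.95 ± 1.40 FPKM, Ccl17 at 4.31 ± 1.65 FPKM, Ackr3 at 2.56 ± 0.533 FPKM and Ackr2 at 1.33 ± 0.483 FPKM followed. In that order Ackr1 and Ccl27a, and Cxcl12 and Ccl17, lay within each other's spread. The other 21 tested members averaged under 1 FPKM in controls. Ccl2, Ccl3, Ccl4, Cxcl1, Cxcl2 and Ccl11, which signal inflammation, had 0 or 1 read in the 3 control libraries together.

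Against controls, no member was called at 1.5 h, 14 rose and 2 fell at 12 h, and 12 rose and 1 fell at 48 h. Over all 17664 genes tested by the same limma fit, 0.555% were called at 1.5 h, 21.2% at 12 h (13.3% higher, 7.9% lower) and 12.5% at 48 h (7.5% higher, 5.01% lower). The median log2 change of the 28 tested members was 0.10 at 1.5 h, 0.53 at 12 h and 0.61 at 48 h, against 0.02, 0.00 and -0.00 for all genes. An F-test of any difference among the 4 groups called 21 of the 28 members, against 38.4% of all genes. The 3 comparisons share their control libraries, so each is described by its own values.

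**Figure D1:**
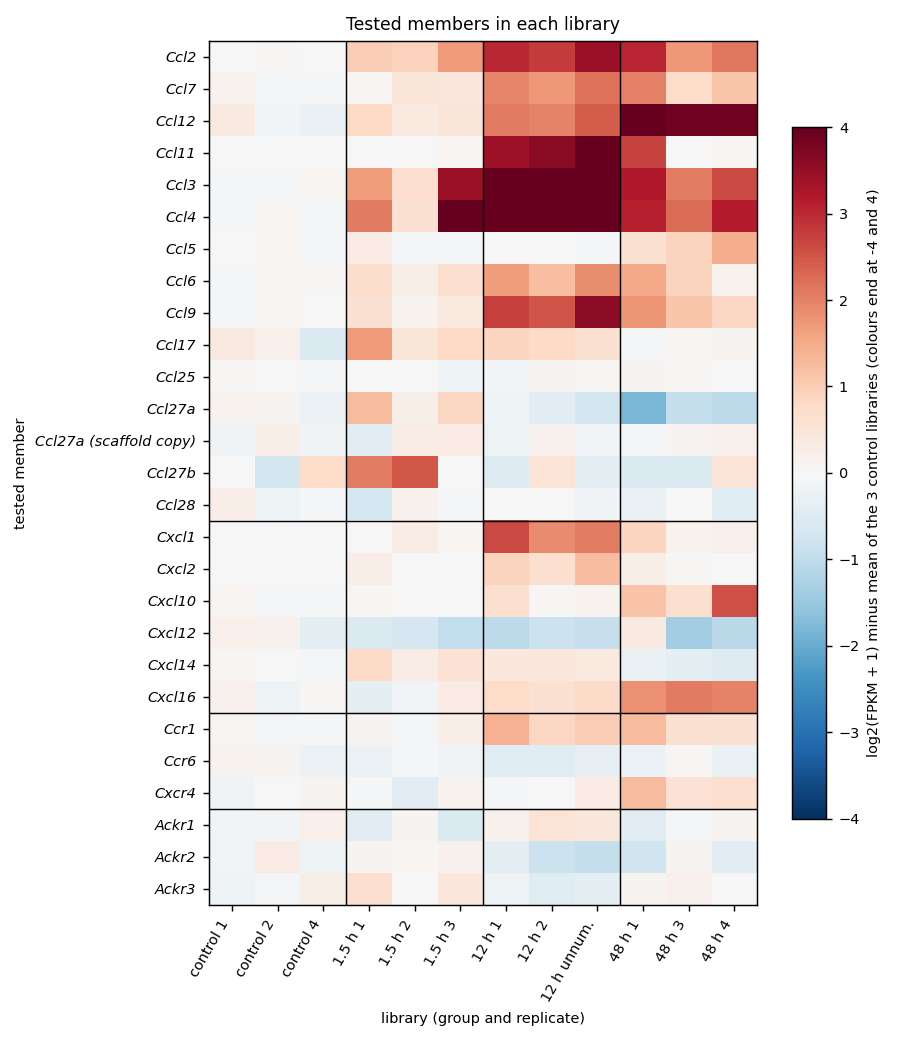
Colour shows log2(FPKM + 1) of 27 of the 28 tested members (rows) in each of 12 libraries (columns), minus the mean of the 3 control libraries; lines separate the groups and, from the top, CC ligands, CXC ligands, CC and CXC receptors, and atypical receptors. The red block of CC ligands is deepest in the 12 h libraries, Ccl12, Cxcl16 and Ccl5 are highest at 48 h, and Ccl27a is lower than control at 48 h.

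**Figure D2:**
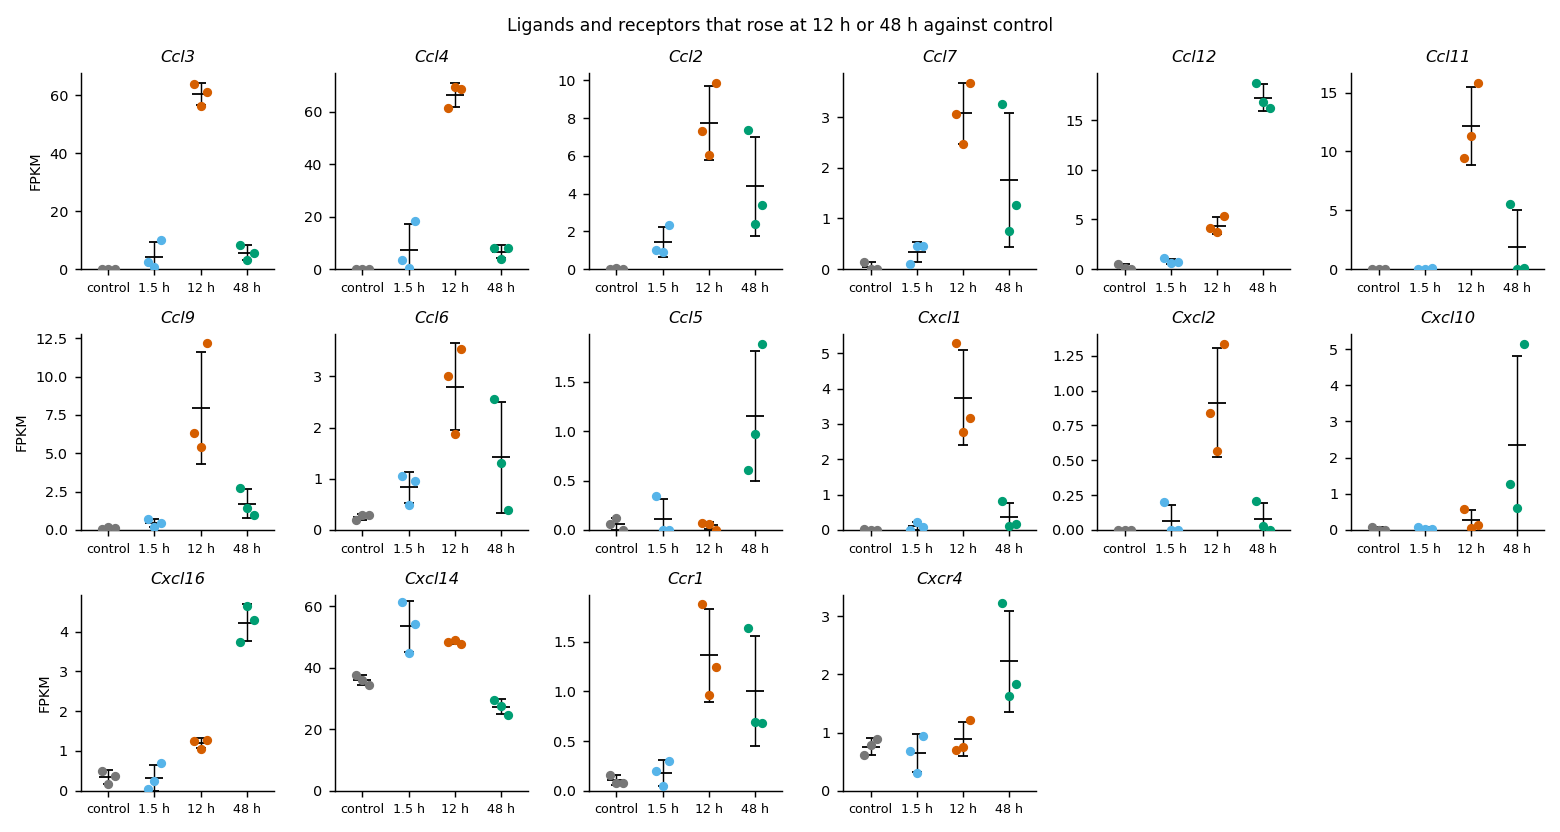
Each panel gives the FPKM of a member that rose at 12 h or at 48 h against control, on its own linear scale from 0; coloured points are libraries, the black dash is the group mean and the bar its SD (n = 3), cut at 0. The 3 libraries of the 12 h group lie above all controls in every panel except those of Ccl5, Cxcl10 and Cxcr4.

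Ccl3 and Ccl4 encode the macrophage inflammatory proteins, leukocyte attractants of which Ccl3 signals through Ccr1. Ccl3 had 2.26, 0.640 and 10.1 FPKM at 1.5 h (replicates 1, 2 and 3), 64.0, 56.3 and 61.2 FPKM at 12 h (replicates 1 and 2 and an unnumbered library) and 8.43, 3.21 and 5.42 FPKM at 48 h (replicates 1, 3 and 4), against 0, 0 and 0.0747 FPKM in controls (replicates 1, 2 and 4). Ccl4 had 3.37, 0.557 and 18.4 FPKM at 1.5 h, 61.3, 69.5 and 68.7 FPKM at 12 h and 7.85, 3.81 and 8.15 FPKM at 48 h, against 0, 0.0858 and 0 FPKM in controls. All 9 treated libraries lay above all controls for both genes, the 12 h libraries were close together, and the 1.5 h libraries were spread widely with replicate 3 highest.

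On the log2(FPKM + 1) scale Ccl3 rose by 5.91 ± 0.53 at 12 h and by 2.63 ± 0.53 at 48 h against control (± is the SE of the limma fit; adjusted p = 4e-05 and 0.0083, Benjamini-Hochberg over all tested genes, as for all adjusted p below). Ccl4 rose by 6.04 ± 0.67 and 2.83 ± 0.67 (adjusted p = 0.00013 and 0.018). The pseudocount of 1 keeps these changes small for genes near 0. In reads, Ccl3 had 2180 in the 12 h libraries against 1 in the controls, a ratio of 2427 after scaling by depth, with a 95% counting interval of 435.1 to 95890 that covers counting error only. The 48 h rise of Ccl4 was at the margin: leaving out any control, or 48 h replicate 1 or 4, gave an adjusted p between 0.0544 and 0.0625. Ccl3 and Ccl4 were 3.28 ± 0.53 and 3.21 ± 0.67 lower in log2 at 48 h than at 12 h (adjusted p = 0.0021 and 0.0081).

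Ccl2, Ccl7 and Ccl12 encode monocyte chemoattractants that act through Ccr2; Ccl12 is a gene of rodents. Ccl2 had 1.01, 0.915 and 2.32 FPKM at 1.5 h, 7.30, 6.04 and 9.88 FPKM at 12 h and 7.36, 2.40 and 3.37 FPKM at 48 h, against 0, 0.0498 and 0 FPKM in controls. Ccl7 had 0.103, 0.459 and 0.446 FPKM, then 3.07, 2.47 and 3.68 FPKM, then 3.27, 0.750 and 1.26 FPKM at the same times, against 0.144, 0 and 0 FPKM in controls. Ccl12 had 1.07, 0.570 and 0.665 FPKM at 1.5 h, 4.08, 3.69 and 5.38 FPKM at 12 h and 18.8, 16.8 and 16.3 FPKM at 48 h, against 0.538, 0.106 and 0 FPKM in controls.

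The 12 h and 48 h libraries lay above the controls for all 3 genes, and for Ccl12 the 48 h libraries also all lay above the 12 h ones. Ccl2 rose by 3.08 ± 0.31 at 12 h and 2.30 ± 0.31 at 48 h against control (adjusted p = 7.6e-05 and 0.00079), and Ccl7 by 1.95 ± 0.27 and 1.29 ± 0.27 (adjusted p = 0.00056 and 0.0097). Ccl7 exceeded the limit for testing only in 12 h and 48 h libraries, so a difference at these times was built into its selection. Ccl12 rose by 2.16 ± 0.18 and 3.93 ± 0.18 (adjusted p = 2.6e-05 and 1.1e-06), and it rose by a further 1.77 ± 0.18 at 48 h against 12 h (adjusted p = 0.00013). For Ccl2 and Ccl7 the difference of 48 h from 12 h was -0.79 and -0.66 and did not pass (adjusted p = 0.11 and 0.13).

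Ccl11, or eotaxin, attracts eosinophils through Ccr3. It had 0, 0 and 0.0661 FPKM at 1.5 h, 9.40, 11.3 and 15.8 FPKM at 12 h and 5.53, 0 and 0.0492 FPKM at 48 h, against 0 FPKM in each control. Only the 12 h libraries were all high, and at 48 h replicate 1 alone was. With 622 reads against 0, the 12 h group was at least 230.8-fold higher than control, taking 3 reads over the control group as the floor. Ccl11 rose by 3.69 ± 0.56 in log2 at 12 h (adjusted p = 0.00091), was 0.93 ± 0.56 above control at 48 h (adjusted p = 0.33) and was 2.76 ± 0.56 lower at 48 h than at 12 h (adjusted p = 0.0068). Ccl11 exceeded the limit for testing only in the 12 h libraries and 48 h replicate 1. A difference at 12 h was thus built into its selection, and the p-values for 12 h are no independent measure of it.

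Ccl6 and Ccl9 encode ligands of Ccr1 found in mouse. Ccl9 had 0.703, 0.221 and 0.446 FPKM at 1.5 h, 6.33, 5.39 and 12.2 FPKM at 12 h and 2.75, 1.42 and 0.979 FPKM at 48 h, against 0.0759, 0.167 and 0.0939 FPKM in controls. Ccl6 had 1.05, 0.478 and 0.956 FPKM, then 3.0, 1.86 and 3.53 FPKM, then 2.56, 1.31 and 0.386 FPKM, against 0.193, 0.284 and 0.287 FPKM. Every treated library was above every control for both genes. Ccl9 rose by 2.94 ± 0.28 at 12 h and 1.24 ± 0.28 at 48 h (adjusted p = 5.4e-05 and 0.015) and was 1.70 ± 0.28 lower at 48 h than at 12 h (adjusted p = 0.0023). Ccl6 rose by 1.57 ± 0.29 at 12 h (adjusted p = 0.0033) and was 0.84 ± 0.29 higher at 48 h, which did not pass (adjusted p = 0.088). The 48 h call of Ccl9 was lost without 48 h replicate 1 or without control replicate 1 (adjusted p = 0.0507 and 0.0547).

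Ccl5, a T cell and monocyte attractant induced by interferon and NF-kB, was high at the last time. It had 0.343, 0 and 0 FPKM at 1.5 h, 0.0692, 0.0645 and 0 FPKM at 12 h and 0.612, 0.967 and 1.89 FPKM at 48 h, against 0.0602, 0.118 and 0 FPKM in controls. All 48 h libraries stood above the controls, as did 1.5 h replicate 1 with 4 reads, and the other treated libraries did not. The 48 h group had 62 reads against 3 in controls, a ratio of 19.4 with a counting interval of 6.34 to 96.7. Ccl5 rose by 0.98 ± 0.20 at 48 h against control (adjusted p = 0.0075) and by 1.0 ± 0.20 at 48 h against 12 h (adjusted p = 0.0058). Ccl5 exceeded the limit for testing only in the 48 h libraries. A difference at 48 h was thus built into its selection, and these p-values are no independent measure of it. At 12 h its difference from control was -0.02 ± 0.20.

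These 9 genes are the tested members of a run of 11 CC ligand genes on chromosome 11, between 82035571 and 83664683 on build GRCm38. Ccl2, Ccl7, Ccl11 and Ccl12 lie at one end with Ccl8 and Ccl1, which were not tested, and Ccl5, Ccl9, Ccl6, Ccl3 and Ccl4 lie at the other, 1220087 bases further on. Of the 9, 8 rose at 12 h (all but Ccl5) and 7 rose at 48 h (all but Ccl11 and Ccl6). Of all genes tested, 13.3% rose at 12 h and 7.5% at 48 h. All 8 CC ligands that rose at 12 h are in this run. The 6 tested CC ligands elsewhere, which are Ccl17, Ccl25, Ccl28, Ccl27b and 2 copies of Ccl27a, gave no call at 12 h. Each of these 6 exceeded the 0.5 FPKM limit for testing in some control library. Of the 9 in the run only Ccl12 did, so calls inside and outside the run are not compared. The summed level of all CC ligands was 38.3 to 70.1 FPKM at 1.5 h, 178.9 to 198.4 FPKM at 12 h and 44.3 to 67.0 FPKM at 48 h, against 18.6 to 25.2 FPKM in controls.

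The CXC ligands that bear on neutrophils lie on chromosome 5 (GRCm38, 90759360 to 92365485 with the interferon-induced Cxcl9, Cxcl10 and Cxcl11). Cxcl1 and Cxcl2 are ligands of Cxcr2. Cxcl1 had 0, 0.229 and 0.0762 FPKM at 1.5 h, 5.28, 2.78 and 3.18 FPKM at 12 h and 0.826, 0.117 and 0.170 FPKM at 48 h, against 0.0308, 0 and 0 FPKM in controls. Cxcl2 had 0.199, 0 and 0 FPKM, then 0.836, 0.569 and 1.34 FPKM, then 0.206, 0.0264 and 0 FPKM, against 0 FPKM in each control. Both were high in the 12 h libraries only, with no overlap between the 12 h libraries and any other. Cxcl1 rose by 2.20 ± 0.22 and Cxcl2 by 0.92 ± 0.15 at 12 h (adjusted p = 6.7e-05 and 0.0017). At 48 h they were 1.79 ± 0.22 and 0.81 ± 0.15 lower than at 12 h (adjusted p = 0.00039 and 0.0046). Cxcl2 had 89 reads at 12 h against 0 in controls, at least 33.0-fold. Cxcl2 exceeded the limit for testing only in the 12 h libraries, so a difference at 12 h was built into its selection. Cxcl1 exceeded it only there and in 48 h replicate 1, so the same holds for Cxcl1. The related Cxcl3 had 18 reads over 12 libraries and was not tested.

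Cxcl10, an interferon-induced ligand of Cxcr3, had 0.0731, 0.0272 and 0.0317 FPKM at 1.5 h, 0.590, 0.0550 and 0.139 FPKM at 12 h and 1.28, 0.606 and 5.15 FPKM at 48 h, against 0.0770, 0 and 0 FPKM in controls. The 48 h libraries were all above the controls, with replicate 4 far above the other 2, and 12 h replicate 2 lay among the controls. It rose by 1.46 ± 0.38 at 48 h against control (adjusted p = 0.027), and without any single control the adjusted p was between 0.0749 and 0.0867. At 12 h the difference was 0.28 ± 0.38, and at 48 h against 12 h it was 1.19 ± 0.38 (adjusted p = 0.66 and 0.055). Cxcl10 exceeded the limit for testing only in the 48 h libraries and 12 h replicate 1, so a difference at 48 h was built into its selection. Its neighbours Cxcl9 and Cxcl11, which share its receptor, had 4 and 58 reads over 12 libraries and were not tested. The GENCODE annotation lists Cxcl11 as a polymorphic pseudogene. Cxcl10 and Cxcl11 both overlap Art3, so their reads may not be unique to them.

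The sequence before the start of these genes was compared because CC and CXC ligands that rose at different times lie side by side. RefSeq windows of 250 bases before and 50 bases after the start (GRCm38.p6) matched 42 of the 59 members on placed chromosomes, 20 of them tested. Ccl2, Ccl4, Ccl5, Ccl7, Ccl11 and Cxcl16 were among the members without a window and were not searched. The NF-kB motif kappaB was searched as GGG and TTCC with any 3 bases between them, which reads GGAA, 3 bases and CCC on the other strand. It was found in 8 of the 42 members (19.0%), against 5.56% of 32817 RefSeq windows of the same length. The 8 are Cxcl1, Cxcl2, Cxcl3, Cxcl10, Ccl9, Ccl20, Ccl1 and Ccr3. The AP-1 motif TGANTCA (N is any base) was in 8 (19.0%), against 7.81% of all windows, the interferon motif ISRE, as GAAA and GAAA with any 2 bases between them, in 3 (7.1%), against 3.43%, and the TATA box as TATAAA in 11 (26.2%), against 13.6%. The 250 bases before the start follow, 5′ to 3′ on the strand of the gene, first for the neutrophil ligands Cxcl1, Cxcl2 and Cxcl3. Ccl9 and Cxcl10, which share the motif and had their highest means at 12 h and at 48 h, come next. Last is Ccl3, a strong riser without the motif. Capitals mark kappaB matches on either strand, joined where matches of both strands overlap.
Cxcl1: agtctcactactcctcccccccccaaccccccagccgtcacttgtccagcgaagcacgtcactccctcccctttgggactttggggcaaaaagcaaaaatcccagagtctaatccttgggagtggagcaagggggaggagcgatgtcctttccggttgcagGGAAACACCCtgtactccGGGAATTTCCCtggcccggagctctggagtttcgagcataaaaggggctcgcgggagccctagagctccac
Cxcl2: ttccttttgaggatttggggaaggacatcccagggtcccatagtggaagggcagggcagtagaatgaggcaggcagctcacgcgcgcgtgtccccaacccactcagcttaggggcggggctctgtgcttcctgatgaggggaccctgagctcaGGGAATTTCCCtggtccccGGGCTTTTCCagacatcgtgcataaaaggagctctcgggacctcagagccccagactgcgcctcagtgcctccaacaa
Cxcl3: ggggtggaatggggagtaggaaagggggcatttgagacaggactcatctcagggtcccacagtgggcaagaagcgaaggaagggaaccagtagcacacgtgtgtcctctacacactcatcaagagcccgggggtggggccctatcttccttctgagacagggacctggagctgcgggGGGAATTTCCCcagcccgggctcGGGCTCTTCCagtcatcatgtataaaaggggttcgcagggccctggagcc
Ccl9: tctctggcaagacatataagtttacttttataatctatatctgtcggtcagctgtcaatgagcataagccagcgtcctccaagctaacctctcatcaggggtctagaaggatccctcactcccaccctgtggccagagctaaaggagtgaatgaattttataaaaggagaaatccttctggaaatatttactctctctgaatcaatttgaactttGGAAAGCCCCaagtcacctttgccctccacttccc
Cxcl10: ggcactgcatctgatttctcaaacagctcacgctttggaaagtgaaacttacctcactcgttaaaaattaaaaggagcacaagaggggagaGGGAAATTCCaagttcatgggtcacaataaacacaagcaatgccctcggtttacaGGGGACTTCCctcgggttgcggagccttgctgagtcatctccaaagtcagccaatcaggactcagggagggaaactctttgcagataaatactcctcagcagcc
Ccl3: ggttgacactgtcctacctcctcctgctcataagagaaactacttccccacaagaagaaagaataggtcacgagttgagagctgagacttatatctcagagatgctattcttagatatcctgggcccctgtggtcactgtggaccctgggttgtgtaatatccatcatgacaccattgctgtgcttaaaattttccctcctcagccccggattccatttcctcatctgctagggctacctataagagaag
These stretches are chr5:90890995-90891244 (Cxcl1, plus strand), chr5:90903649-90903898 (Cxcl2, plus strand), chr5:90785851-90786100 (Cxcl3, plus strand), chr11:83578637-83578886 (Ccl9, minus strand), chr5:92348890-92349139 (Cxcl10, minus strand) and chr11:83649379-83649628 (Ccl3, minus strand). Cxcl1, Cxcl2 and Cxcl3 each hold a pair of matches, the first bases of which lie 89 and 71, 97 and 78, and 73 and 50 bases before the start. From the first base of one match to that of the next there are thus 18, 19 and 23 bases, and 55 bases in Cxcl10, whose matches begin 159 and 104 bases before the start. Ccl9 has 1 match, 35 bases before the start.

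Of the 8 members with a match, Cxcl1, Cxcl2, Cxcl10 and Ccl9 were tested. Cxcl2 exceeded the limit for testing only in the 12 h libraries, and Cxcl1 and Cxcl10 only in libraries of 12 h and 48 h, so calls are not compared between members with and without a match. A match is a run of letters and does not show binding, and a window without a match says only that these letters are not in it.

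Cxcl16 is a ligand of Cxcr6 that is made on the cell surface and can be shed. It had 0.0545, 0.243 and 0.686 FPKM at 1.5 h, 1.25, 1.05 and 1.29 FPKM at 12 h and 3.73, 4.65 and 4.30 FPKM at 48 h, against 0.497, 0.169 and 0.379 FPKM in controls. The 48 h libraries lay above the 12 h ones and these above the controls. It rose by 0.71 ± 0.17 at 12 h and 1.96 ± 0.17 at 48 h against control (adjusted p = 0.013 and 3.5e-05), and by 1.25 ± 0.17 at 48 h against 12 h (adjusted p = 0.00076). The 12 h call was lost without control replicate 2 (adjusted p = 0.0595). The gene overlaps Zmynd15, so reads of the 2 genes may not be told apart.

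**Figure D3:**
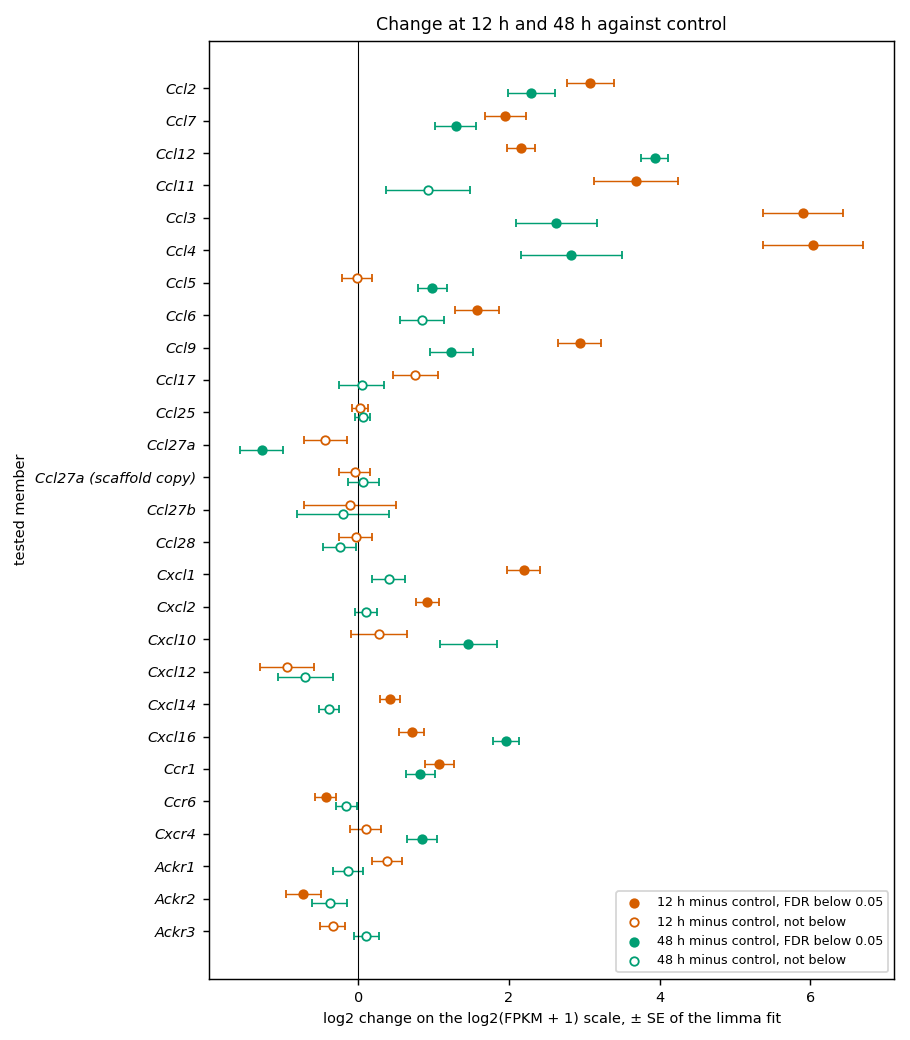
Points give the log2 change of 27 of the 28 tested members at 12 h and at 48 h against control on the log2(FPKM + 1) scale, with the SE of the limma fit as bars; filled points passed an FDR of 0.05. Ccl3 and Ccl4 changed most at 12 h, with log2 changes of 5.91 and 6.04, and Ccl12 most at 48 h, with 3.93.

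Ligands present in control brain moved less and in both directions. Cxcl14 had 61.4, 44.8 and 54.1 FPKM at 1.5 h, 48.3, 49.1 and 47.6 FPKM at 12 h and 29.7, 27.7 and 24.7 FPKM at 48 h, against 37.7, 36.1 and 34.2 FPKM in controls. The 1.5 h and 12 h libraries were all above and the 48 h libraries all below the controls. Cxcl14 rose by 0.42 ± 0.13 at 12 h (adjusted p = 0.046), a call that was lost in 9 of the 12 fits that left out 1 library, with adjusted p up to 0.139. At 48 h it was 0.39 ± 0.13 below control, which did not pass (adjusted p = 0.085), and it was 0.80 ± 0.13 lower at 48 h than at 12 h (adjusted p = 0.0023).

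Ccl27a, a ligand of Ccr10 best known from skin, had 35.0, 16.5 and 25.7 FPKM at 1.5 h, 12.4, 10.1 and 8.06 FPKM at 12 h and 3.21, 6.66 and 6.18 FPKM at 48 h, against 15.3, 15.2 and 11.6 FPKM in controls. The 48 h libraries were all below the controls, the 12 h ones overlapped them and the 1.5 h ones were above. Ccl27a fell by 1.28 ± 0.29 in log2 at 48 h against control (adjusted p = 0.014) and by 2.06 ± 0.29 at 48 h against 1.5 h (adjusted p = 0.00093). Without control replicate 1 or 2 the call against control was lost (adjusted p = 0.0574 and 0.0583). The gene overlaps Il11ra1 on the opposite strand and has near-identical copies, so its counts are uncertain. Its scaffold copy averaged 0.422 ± 0.114 FPKM at 48 h and 0.369 ± 0.225 FPKM in controls, and Ccl27b was called in none of the 6 comparisons.

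Cxcl12, the ligand of Cxcr4 and Ackr3, had 3.57, 3.29 and 2.50 FPKM at 1.5 h, 2.32, 2.76 and 2.60 FPKM at 12 h and 7.81, 1.59 and 2.27 FPKM at 48 h, against 6.86, 6.65 and 4.34 FPKM in controls. Every treated library except 48 h replicate 1 was below every control. No comparison passed: the difference from control was -0.95 ± 0.36 at 12 h and -0.70 ± 0.36 at 48 h (adjusted p = 0.088 and 0.25). Ccl17, a ligand of Ccr4, had 15.7, 6.19 and 7.79 FPKM at 1.5 h, 8.28, 7.83 and 6.84 FPKM at 12 h and 3.95, 4.36 and 4.56 FPKM at 48 h, against 5.62, 4.85 and 2.45 FPKM in controls. It was lower at 48 h than at 1.5 h by 0.95 ± 0.30 in log2 (adjusted p = 0.049), and without 1.5 h replicate 1, the highest library, the difference was -0.59 (adjusted p = 0.136); 10 of the 12 fits without 1 library lost the call.

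**Figure D4:**
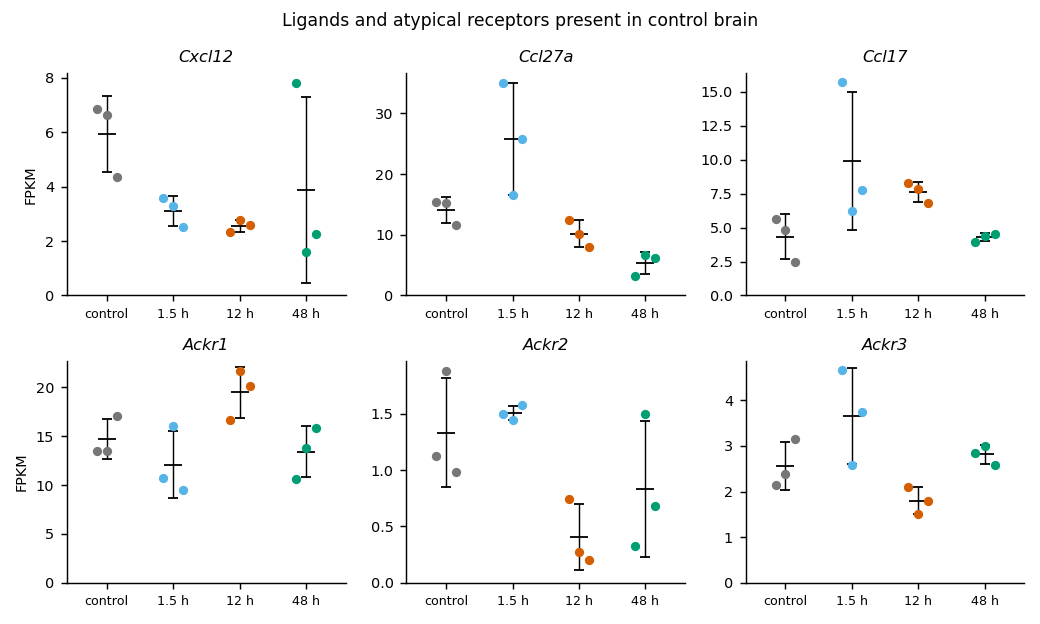
Each panel gives the FPKM of a ligand or atypical receptor with a control mean above 1 FPKM, on its own linear scale from 0; points are libraries, the dash is the group mean and the bar its SD (n = 3). For Ccl27a the 48 h libraries lie below all controls, and for Cxcl12 a single 48 h library at 7.81 FPKM stands above the other treated libraries.

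Among the receptors, Ccr1, which binds Ccl3 and related ligands, rose at 12 h and at 48 h. Ccr1 had 0.203, 0.0432 and 0.303 FPKM at 1.5 h, 1.88, 0.962 and 1.24 FPKM at 12 h and 1.64, 0.694 and 0.677 FPKM at 48 h, against 0.163, 0.0800 and 0.0808 FPKM in controls. The 12 h and 48 h libraries were above the controls, while the 1.5 h libraries overlapped them. Ccr1 rose by 1.07 ± 0.19 at 12 h and 0.82 ± 0.19 at 48 h (adjusted p = 0.0028 and 0.018). Ccr1 exceeded the limit for testing only in 12 h and 48 h libraries. A difference at these times was thus built into its selection, and these p-values are no independent measure of it. The 48 h call of Ccr1 was lost without any single control (adjusted p = 0.0501 to 0.066).

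Cxcr4, the receptor of Cxcl12 on leukocytes, neural progenitors and vessels, had 0.683, 0.305 and 0.949 FPKM at 1.5 h, 0.698, 0.754 and 1.22 FPKM at 12 h and 3.22, 1.63 and 1.83 FPKM at 48 h, against 0.607, 0.783 and 0.886 FPKM in controls. Only the 48 h libraries lay clear of the controls. Cxcr4 rose by 0.85 ± 0.20 at 48 h against control and by 0.75 ± 0.20 at 48 h against 12 h (adjusted p = 0.019 and 0.028). Both calls were lost without 48 h replicate 1 (adjusted p = 0.0558 and 0.0767). The call against control was also lost without control replicate 1 or 2 (0.0793 and 0.0613), and that against 12 h without 12 h replicate 1 or 2 (0.0999 and 0.0982). Ccr6, the receptor of Ccl20, had 0.0573, 0.0534 and 0.189 FPKM at 12 h, against 0.647, 0.586 and 0.247 FPKM in controls. It fell by 0.43 ± 0.14 at 12 h (adjusted p = 0.048), a call that 8 of the 12 fits without 1 library lost, with adjusted p up to 0.17.

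Receptors for the other ligands were scarcely detected. Ccr2, the receptor of Ccl2, Ccl7 and Ccl12 and a marker of inflammatory monocytes, had at most 0.197 FPKM in any library and 76 reads in all. Cxcr2, the receptor of Cxcl1 and Cxcl2, had 0.0872, 0.0813 and 0.309 FPKM at 12 h, against 0 FPKM in each control, with 34 reads in all 12 libraries. Ccr3 had 14 reads and Cxcr3 7. None of these was tested. Ccr1, Ccr2 and Ccr3 lie together with Ccr9, Cxcr6 and Ccr1l1 on chromosome 9.

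Of the 3 tested atypical receptors, Ackr2 fell at 12 h against control and the other two passed in no comparison with control. Ackr1, which holds inflammatory chemokines on venular endothelium, had 16.6, 21.6 and 20.2 FPKM at 12 h and 10.6, 13.8 and 15.8 FPKM at 48 h, against 13.5, 13.5 and 17.1 FPKM in controls. Both groups overlapped the controls, and the 48 h libraries all lay below the 12 h ones (log2 difference -0.51, adjusted p = 0.11). The gene overlaps Cadm3 on the same strand, so reads of the 2 genes may not be told apart. No comparison of Ackr1 with control passed; it was 0.67 ± 0.20 higher at 12 h than at 1.5 h (adjusted p = 0.027), where the 1.5 h libraries had 10.7, 16.0 and 9.51 FPKM, and without 1.5 h replicates 1 and 3 the difference was 0.26 (adjusted p = 0.47). That call was also lost without 1.5 h replicate 1 or 3 alone, 12 h replicate 2 or the unnumbered 12 h library (adjusted p = 0.0774 to 0.107). Ackr2, a scavenger of inflammatory CC ligands, had 1.50, 1.45 and 1.58 FPKM at 1.5 h, 0.744, 0.277 and 0.201 FPKM at 12 h and 0.324, 1.50 and 0.681 FPKM at 48 h, against 1.13, 1.88 and 0.988 FPKM in controls. The 12 h libraries lay below the controls and the 1.5 h libraries. Ackr2 fell by 0.73 ± 0.23 at 12 h against control (adjusted p = 0.045), and 7 of the 12 fits without 1 library lost that call, with adjusted p up to 0.172. It was also 0.85 ± 0.23 lower at 12 h than at 1.5 h (adjusted p = 0.018), a call lost without 1.5 h replicate 3, 12 h replicate 2 or the unnumbered 12 h library (adjusted p = 0.0556, 0.0601 and 0.066) and without both 1.5 h replicates 1 and 3 (0.159). Ackr3, the scavenger of Cxcl12, had 4.67, 2.58 and 3.74 FPKM at 1.5 h, 2.10, 1.52 and 1.78 FPKM at 12 h and 2.85, 3.0 and 2.59 FPKM at 48 h, against 2.14, 2.39 and 3.16 FPKM in controls. It was 0.72 ± 0.17 lower at 12 h than at 1.5 h (adjusted p = 0.011) and did not pass against control; without 1.5 h replicates 1 and 3 the difference from 1.5 h was -0.36 (adjusted p = 0.219).

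At 1.5 h no member passed, by limma on log2(FPKM + 1) or by limma voom on the recovered reads. At an unadjusted p under 0.05, 8 members were higher and 0 lower by the first, and 9 higher and 0 lower by the second. Of all 17664 genes, 31.6% had such a p by the first (18.9% higher, 12.7% lower) and 31.7% by the second (18.1% higher, 13.5% lower), so the share of members in either direction was near that of all genes. The 8 were Ccl3, Ccl4, Ccl2, Ccl12, Ccl17, Ccl27a, Ccl27b and Cxcl14, with log2 differences of 0.55 to 2.31. Ccl2, Ccl3 and Ccl4 were above every control in every 1.5 h library, and with a pseudocount of 0.1 in place of 1 these 3 passed (adjusted p = 0.005, 0.025 and 0.039), where 0.793% of all genes were called (0.651% higher, 0.142% lower). Without 1.5 h replicate 2, the 1.5 h library that did not stand apart, 8 members were higher and 1 lower, while 45.7% of all genes were called (25.8% higher, 19.8% lower); the share of members in either direction was no larger than that. The 2 libraries then left are those with high mitochondrial reads and high short genes, and the part of that composition in these values was not tested.

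Between the treated groups, 4 members rose and 7 fell at 48 h against 12 h, where 15.6% of all genes were called (5.88% higher, 9.73% lower). Those that rose were Ccl12, Cxcl16, Ccl5 and Cxcr4. Those that fell were Ccl3, Ccl4, Ccl11, Cxcl1, Ccl9, Cxcl2 and Cxcl14. At 12 h against 1.5 h, 14 rose and 3 fell (33.2% of all genes called, 16.9% higher and 16.3% lower). The risen members included Ccl3, Ccl4, Ccl11, Ccl9, Cxcl1, Ccl2, Ccl7, Ccl12, Ccl6, Ccr1, Cxcl2, Cxcl16 and Ackr1, with log2 changes of 0.67 to 3.98. Ccl6 lost this call without 12 h replicate 1 or the unnumbered 12 h library (adjusted p = 0.0639 and 0.0755). The 3 that fell were Ccl27a, Ackr2 and Ackr3. Without 1.5 h replicates 1 and 3 the difference of Ccl27a was -0.67 (adjusted p = 0.214). At 48 h against 1.5 h, 9 rose and 3 fell, where 17.8% of all genes were called (8.91% higher, 8.87% lower). Those that rose included Ccl12, Cxcl16, Cxcl10, Ccl2, Cxcr4, Ccl7, Ccl5 and Ccr1, with log2 changes of 0.73 to 3.38, and the 3 that fell were Cxcl14, Ccl27a and Ccl17. The calls of Ccl2 and Ccl7 in this last comparison were lost in 6 and 7 of the 12 fits without 1 library, with adjusted p up to 0.102 and 0.107. Cxcl10 lost it without 1.5 h replicate 1 or 3 (0.0561 and 0.0681), and Ccr1 without 1.5 h replicate 1 or 48 h replicate 1 (0.0557 and 0.0745).

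Of 16 genes that induce chemokines or restrain that induction, 15 rose at 12 h and 8 at 48 h, all 16 being tested, with median log2 changes of 1.42 and 0.61. Of all genes tested, 13.3% rose at 12 h and 7.5% at 48 h. Il6, the cytokine, had 1.48, 2.32 and 2.59 FPKM at 12 h, against 0 FPKM in each control, and Tnf 1.99, 1.74 and 1.11 FPKM, against 0.0352, 0 and 0 FPKM. They rose by 1.63 ± 0.15 and 1.35 ± 0.14 at 12 h (adjusted p = 4.9e-05 and 7.7e-05). Of the 16, 4 were under 0.5 FPKM in every control library, Il6 and Tnf among them, and 0 in every 12 h library. These 4 passed the limit for testing only through treated libraries, so a difference was built into their selection. The count of 15 and the p-values of Il6 and Tnf are thus no independent measure of a rise. Nfkb2, an NF-kB subunit, rose by 1.63 at 12 h and 1.0 at 48 h. Relb alone of the 16 rose at 1.5 h, by 1.06 (adjusted p = 0.048).

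Of 6 adhesion molecules that capture leukocytes on endothelium, 4 were tested. All 4 rose at 12 h and 3 at 48 h, with median log2 changes of 0.84 and 0.79. The shares of all genes tested that rose were 13.3% and 7.5%. Of the 6, 4 were under 0.5 FPKM in every control library and 2 in every 12 h library. A listed gene that passed the limit for testing only through treated libraries had to differ. Counts and p-values that include such genes, here and below, are thus no independent measure of a rise. Icam1 rose by 1.97 at 12 h (adjusted p = 9.1e-05) and Sele, endothelial selectin, by 1.01 (adjusted p = 0.0014). Of 21 genes that act behind chemokine receptors, 19 were tested: 1 rose at 1.5 h (Rgs2, which curbs G protein signals, by 1.96, adjusted p = 0.026), 5 rose and 0 fell at 12 h, and 7 rose and 1 fell at 48 h. The median log2 changes of these 19 were 0.24 at 12 h and 0.38 at 48 h. Among all genes tested, 0.419% rose at 1.5 h. At 12 h 13.3% rose and 7.9% fell, and at 48 h 7.5% rose and 5.01% fell. Of the 21, 4 were under 0.5 FPKM in every control library and 2 in every 12 h library. Rac2 and Vav1, which drive the leukocyte cytoskeleton, rose by 1.64 and 1.22 at 48 h (adjusted p = 0.0011 and 0.00019). Among 9 chemokine-system genes outside the name rule, 6 were tested. Cx3cr1 fell by 0.74 at 12 h and rose by 0.80 at 48 h (adjusted p = 0.0096 and 0.01), Cx3cl1 fell by 0.64 at 48 h (adjusted p = 0.018), and the decoy-like receptor Ccrl2 rose by 0.56 at 12 h (adjusted p = 0.016).

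Some markers of leukocytes and vessels moved beside the chemokines. Of the leukocyte lists, 3 neutrophil and 3 T cell markers were tested. At 12 h 2 of these neutrophil markers and 1 T cell marker rose, where 13.3% of all genes tested rose. Of the 10 neutrophil markers, 9 were under 0.5 FPKM in every control library, and of the 6 T cell markers, 4 were. For a marker that passed the limit for testing only through treated libraries, a difference was built into its selection. At 48 h 1 T cell marker fell. The 10 neutrophil markers summed to 1.73, 4.85 and 21.0 FPKM in the 1.5 h libraries in rising order, 6.50 to 22.4 FPKM at 12 h and 3.0 to 5.72 FPKM at 48 h, against 1.42 to 1.88 FPKM in controls. The highest 1.5 h library was thus close to the highest 12 h one. S100a8 and S100a9 rose at 12 h, while Ly6g and Camp were at 0 in all 12 h libraries. The 5 monocyte markers summed to 0.243 to 2.08 FPKM at 1.5 h, 0.581 to 0.987 FPKM at 12 h and 0.655 to 1.98 FPKM at 48 h, against 0.117 to 0.491 FPKM in controls, and none was tested. Of 6 T cell markers, Cd3e rose at 12 h by 3.0 in log2 (adjusted p = 2.2e-05), with 10.3, 8.73 and 3.80 FPKM, while Cd3d and Cd3g stayed at or under 0.104 FPKM and Cd8a was at 0 there. The 4 natural killer cell markers summed to at most 0.499 FPKM in any library, and the 4 B cell markers to at most 0.787 FPKM. None of either was tested. The 5 erythroid markers summed to 11.8 to 364.9 FPKM at 1.5 h and 9.23 to 56.5 FPKM at 12 h. Their sums were 1.94 to 10 FPKM at 48 h and 0.781 to 30.1 FPKM in controls. None of the 4 tested was called, and the part of blood in the leukocyte sums was not tested.

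Of 7 microglia markers, 5 fell at 12 h and 4 rose at 48 h; their sum was 75.5 to 126.7 FPKM at 1.5 h, 48.3 to 51.3 FPKM at 12 h and 144.3 to 149.7 FPKM at 48 h, against 82.6 to 88.1 FPKM in controls. Of 5 endothelial markers, 4 rose at 12 h and 1 at 48 h, with sums of 14.3 to 24.3 FPKM at 1.5 h, 48.8 to 61.3 FPKM at 12 h and 44.9 to 69.6 FPKM at 48 h, against 20.6 to 23.9 FPKM in controls. Beside both lists, 13.3% of all genes tested rose and 7.9% fell at 12 h, and 7.5% rose and 5.01% fell at 48 h. The 3 choroid plexus markers summed to 2.30 to 442 FPKM at 1.5 h, 297.5 to 711.4 FPKM at 12 h and 32.5 to 985.6 FPKM at 48 h, against 422.7 to 664.4 FPKM in controls. In 48 h replicate 1, where Ccl11, Cxcl12, Cxcl1 and Cxcr4 were highest of their group, the choroid plexus and endothelial sums were also the highest of the group. Without that library, 9 members rose and 2 fell at 48 h against control, where 10.1% of all genes were called (6.38% higher, 3.74% lower). The part that the mix of cells had in the chemokine values was not tested.

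**Figure D5:**
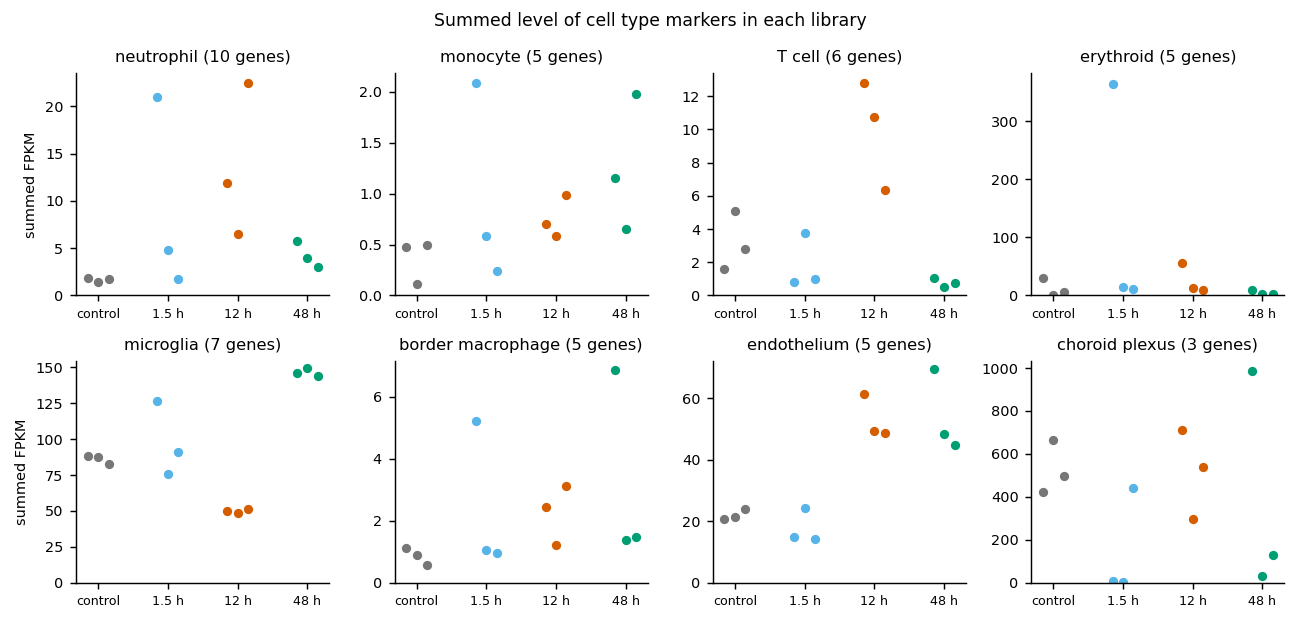
Each panel gives the summed FPKM of a list of cell type markers in each of the 12 libraries, on its own linear scale from 0; points are libraries. Microglia markers are lowest at 12 h (48.3 to 51.3 FPKM) and highest at 48 h (144.3 to 149.7 FPKM), and the choroid plexus sum of 985.6 FPKM belongs to 48 h replicate 1.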

How the data were processed

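RNA sequencing libraries of mouse brain, 3 in each of 4 groups, were analysed from a single table of gene values. The authors deposited FPKM values for each gene and library, with gene lengths and positions, per the file headers. Bowtie 0.12.2 and the mouse build mm8 are named per the submitters' processing notes; the counting tool, annotation and strandedness are not given in the sources used here. Positions in the table matched GENCODE M21 on GRCm38 for all 66 members, so they are given on that build. Multiplied by gene length and divided by the worth of 1 read, 100% of the deposited FPKM values were whole numbers of reads within 0.05, which gave the reads per library. Of 12 columns, 11 carried a number found in a sample title; the other, of the 12 h group, is called unnumbered.

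Members and gene lists were chosen with earlier results of these data known. The 17664 genes, 28 of them members, that exceeded 0.5 FPKM in 3 or more libraries were fitted by limma 3.58.1 (R 4.3.3, with trend, all 12 libraries in 1 fit) on log2(FPKM + 1), with Benjamini-Hochberg adjustment and an FDR of 0.05. The fit was tested on simulated data. Apart from some results that are not reported here, those named are all members called in any of 6 contrasts and 19 members of a written list whatever their values; other genes come from written lists, and members given only as not tested were named after their values were seen. Counting intervals on read ratios are exact binomial at 95%, scaled by the totals behind the FPKM values, and the floor for 0 reads is 3 over the group. Alternatives were the pseudocount, the filter, a fit of 2 groups, quantile normalization, removal of the length trend, a replicate block, leaving out libraries and, chosen after seeing the data, limma voom on recovered reads.

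Promoter windows came from RefSeq (GRCm38.p6); members without an entry are not searched.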

Additional observations from a re-analysis of the deposited data

Results flagged for a closer look

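Cxcl14, at 48 h against 12 h, had a log2 difference of -0.80, because its change against control differed between the times: all 12 h libraries were above and all 48 h libraries below the 3 controls. At 48 h against 1.5 h its difference was -0.93, with the same pattern of the 1.5 h libraries above and the 48 h libraries below the controls. Ccl27a differed by -2.06 in log2 at 48 h against 1.5 h, with all 1.5 h libraries above and all 48 h libraries below the controls; 1.5 h replicates 1 and 3, with 35.0 and 25.7 FPKM, are the libraries with high short genes and mitochondrial reads, whose part was not tested. A difference was flagged only if all libraries lay above the controls at 1 time and all below them at the other. It also had to pass an FDR of 0.05 in limma. The pattern and the pass were thus conditions of this list and not results. In the limma comparisons with control, Cxcl14 at 1.5 h and 48 h and Ccl27a at 1.5 h did not pass (adjusted p = 0.083, 0.085 and 0.11).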

How the results depend on the processing

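No member changed direction under any alternative where it was called. In the 1.5 h comparison the count of members called was 0. It was 3 with a pseudocount of 0.1, where 0.793% of all genes were called. Leaving out 1 library gave 0 to 9, the 9 without 1.5 h replicate 2, where 45.7% of all genes were called. Leaving out 1 library gave 12 to 17 members at 12 h against control, 7 to 14 at 48 h against control, 14 to 17 at 12 h against 1.5 h, 10 to 15 at 48 h against 12 h, 7 to 13 at 48 h against 1.5 h, and 17 to 22 in the F-test of the 4 groups. The lowest counts at 48 h against control, 7 and 8, came without control replicate 1 and 2, and the 7 at 48 h against 1.5 h without 1.5 h replicate 1. A fit of only the 2 groups gave 3 members at 48 h against 1.5 h. Limma voom on recovered reads gave 0 members at 1.5 h, 16 at 12 h and 13 at 48 h against control. With 3 libraries in a group and 1 to 3 reads in controls, low members rest on counting error too. Counts printed without a share of all genes under the same setting describe the fit and are not read as a trait of the members.

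Same-numbered libraries did not deviate together (11 pairs, median correlation -0.0035, range -0.264 to 0.156), and pairing by number was not used. The replicate block lowered the members called to 10 at 12 h and 5 at 48 h against control, 9 at 12 h against 1.5 h, 4 at 48 h against 12 h, 5 at 48 h against 1.5 h and 11 in the F-test. It leaves fewer degrees of freedom, and the unnumbered 12 h library, as a block of its own, adds nothing to it. With the block, 0 members were called at 1.5 h. The share of all genes called with the block is not given, so the drop is not read as particular to the members.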
